A study of Mus musculus with 16 samples.

Results

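The unfolded protein response is the programme by which a cell answers misfolded protein in its endoplasmic reticulum (ER). It was followed here through 10 of the 14925 genes with reads counted over an annotated 3′-UTR, taken by symbol: the ER chaperones *Hspa5*, *Hsp90b1* and *Calr*, the co-chaperone *Dnajb9*, the sensors *Ern1*, *Eif2ak3* and *Atf6*, and the transcription factors *Xbp1*, *Atf4* and *Ddit3*. All 10 had at least 1 region in the tables. Where a symbol had several 3′-UTR regions, the region with the most reads over all libraries was used.

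Misfolded protein draws the chaperone BiP, encoded by *Hspa5*, away from the luminal sides of the sensors. IRE1α, encoded by *Ern1*, then splices *Xbp1* mRNA in the cytoplasm. PERK, encoded by *Eif2ak3*, phosphorylates eIF2α, which slows translation while that of ATF4 increases, and ATF4 in turn drives *Ddit3* (CHOP). ATF6 moves to the Golgi, is cleaved there and switches on chaperone genes. Macrophages stimulated through Toll-like receptors are known to use parts of this system, IRE1α and XBP1 in particular, while they raise their secretory output.

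The reads came from RNA-immunoprecipitation and sequencing (RIP-seq) with an antibody against CPEB4, which binds the cytoplasmic polyadenylation element (CPE), a U-rich motif found in 3′-UTRs. Bone marrow-derived macrophages (BMDMs), that is, bone marrow cells differentiated with L-cell conditioned medium as the source of M-CSF, came from adult mice of the strain labelled C57BL/6J 129. One culture was wildtype (WT, numbered 76) and one was CPEB4 KO (numbered 73), from mice that lack *Cpeb4* in all cells. Each was left untreated or was given 10 ng/ml lipopolysaccharide (LPS) for 9 h, and the RIP and the RNA of the whole lysate (Input) were sequenced. The 8 groups were therefore WT Input untreated, WT Input LPS, KO Input untreated, KO Input LPS and the matching 4 RIPs. Each group was a single library, run on flowcell lanes 7 and 8 and deposited as 1 summed count, so no value has a replicate check. Genotype cannot be told apart from the culture, nor treatment from the dish.

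The libraries held from 467696 (KO RIP untreated) to 2492300 (WT RIP LPS) 3′-UTR reads. As a share of all reads of the library, these were 46.4% to 51.1% in the Inputs, 27.3% and 31.8% in the untreated and LPS KO RIPs, and 48.9% and 70.1% in the WT RIPs. The targeted gene *Cpeb4* had 130.2 and 136 counts per 1000000 3′-UTR reads (CPM) in the untreated and LPS WT Inputs, and 52.0 and 52.6 CPM in the KO Inputs. The RIPs held 836 and 770.4 CPM in WT and 257 and 367 CPM in the KO. Its 3′-UTR kept reads in the KO, and the deleted part of the gene is not given in the sources used here, so these reads do not check the loss of the protein. On 3′-UTR totals its log2 ratio of RIP over Input, defined below, was 2.67 and 2.50 in untreated and LPS WT. In the KO it was 2.29 and 2.79, so the KO RIPs recovered it over Input about as strongly. The input-corrected WT over KO ratio was 0.38 (−0.12 to 0.88) and −0.29 (−0.69 to 0.11). In the Inputs, all 8 of the macrophage markers in the tables were read, with a summed level of 2539 to 3557 CPM. The 5 T and B cell markers in the tables summed to at most 0.754 CPM, and *Cd3e*, *Cd3d* and *Ms4a1* were at 0. The 2 neutrophil markers in the tables reached 0.527 CPM, with *S100a8* at 0. Stromal markers were at 0 in the untreated Inputs and summed to 43.3 (KO) and 35.8 (WT) CPM after LPS, nearly all from *Pdgfrb*, with *Pdgfra* at 0, and their part in the LPS changes below was not tested. The LPS response genes rose in sum from 55.1 to 1785 CPM in the KO Inputs and from 75.3 to 1674 CPM in the WT Inputs.

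Throughout, a ratio is the log2 ratio of reads scaled to the 3′-UTR total after 1 read was added to each library, with a 95% interval from the read counts. Such intervals cover counting error only, because no second culture was sequenced. Duplicate reads had been filtered out, and whether all remaining reads came from independent molecules is not known. A difference was called where the libraries of a pair held at least 10 reads together, the ratio was past 0.5 and the interval excluded 0. The share of all tested genes called in the same way is given as the background.

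On mm10, the chaperone regions were *Hspa5* chr2:34776114-34776531 (plus strand), *Hsp90b1* chr10:86690840-86691101 (minus), *Calr* chr8:84841850-84842646 (minus) and *Dnajb9* chr12:44205897-44206953 (minus). Those of the sensors were *Ern1* chr11:106394650-106398541 (minus), *Eif2ak3* chr6:70904289-70905245 (plus) and *Atf6* chr1:170704674-170709878 (minus), and those of the transcription factors *Xbp1* chr11:5524905-5525893, *Atf4* chr15:80257461-80257540 and *Ddit3* chr10:127296092-127296288 (all plus). All 10 lie in the last exon of the gene, inside its annotated 3′-UTR.

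CPEs were searched as TTTTAT or TTTTAAT on the transcribed strand of the region used (mm10), and 4 of the 10 genes held at least 1: *Ern1* 9, *Atf6* 5, *Eif2ak3* 3 and *Hspa5* 1. The element nearest the 3′ end of each is shown, because it is the motif that the immunoprecipitated protein is known to bind. Capitals mark the CPE, and each line holds 30 bases.
Hspa5, chr2:34776487-34776516, plus strand: attatatccatcTTTTATtttagataacta
Eif2ak3, chr6:70905104-70905133, plus strand: aatacgtttattTTTTATttataaaaattc
Ern1, chr11:106394705-106394734, minus strand: cctcttttacagTTTTATaattctgctcat
Atf6, chr1:170705580-170705609, minus strand: attagcttatatTTTTAATaactaagctta
The *Hspa5* element ended 27 bases before the end of its region, that of *Ern1* 67, that of *Eif2ak3* 124 and that of *Atf6* 917. The last polyadenylation signal (AATAAA) ended 88 bases before the region end in *Hspa5*, 17 in *Ern1*, 21 in *Eif2ak3* and 17 in *Atf6*. The *Hspa5* CPE thus lay after the only signal of its region, and the others lay before their last signal. Whether the *Hspa5* CPE is part of the mature mRNA was not tested. Long regions hold a CPE more often than short ones. Of regions within 20% of the same length, 35.4% held one for *Hspa5* (418 bases), 57.8% for *Eif2ak3* (957 bases), 93.2% for *Ern1* (3892 bases) and 96.9% for *Atf6* (5205 bases). The other 6 regions held neither of these forms: *Atf4* (80 bases), *Ddit3* (197), *Hsp90b1* (262), *Calr* (797), *Xbp1* (989) and *Dnajb9* (1057). For *Xbp1*, *Dnajb9* and *Calr*, 58.9%, 59.9% and 53.7% of regions of like length held one. A variant that ends in G, TTTTGT, was counted apart. It stood 4 times in *Dnajb9*, 2 times each in *Calr* and *Atf6*, and 1 time each in *Atf4*, *Hspa5*, *Eif2ak3* and *Ern1*, and in none of *Xbp1*, *Ddit3* and *Hsp90b1*. For *Atf4*, 6.99% of regions of like length held this variant, and for *Dnajb9* 56.5%. Other variants of the CPE were not searched. The deposited CPE predictions named *Ern1* and *Eif2ak3* among the 10 genes, against 31.8% of all genes.

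The promoters of the chaperone genes are shown because the ER stress response element is the site through which ATF6 and XBP1 are known to act on them. Windows from 250 bases before to 50 bases after the start of transcription (RefSeq, GRCm38.p6) were searched on both strands for this element, CCAAT and CCACG with 9 bases of any kind between them. Capitals mark the fixed bases of the motif, and each line is read along the strand that carries the match.
Hspa5, chr2:34772025-34772043, gene strand: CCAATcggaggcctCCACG
Hsp90b1, chr10:86705638-86705656, gene strand: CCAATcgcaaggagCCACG
Hsp90b1, chr10:86705533-86705551, opposite strand: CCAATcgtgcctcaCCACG
Calr, chr8:84847075-84847093, opposite strand: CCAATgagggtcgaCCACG
The outer end of the *Hspa5* match lay 65 bases before the start, those of the *Hsp90b1* matches 212 and 107 bases before it, and that of the *Calr* match 162 bases before it. Of the 9 genes with a window, these 3 held the motif, against 0.137% of 27025 genes. The element was picked because it is known from chaperone genes, so matches there were fixed beforehand and this count is no test. A match is a description of these letters and is not a measured site.

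Levels of different genes were compared per kilobase of region. In the untreated WT Input, *Calr*, which encodes calreticulin, a lectin chaperone, stood at 444 CPM per kilobase. *Xbp1* followed at 182, *Hsp90b1* (GRP94) at 131, *Ddit3* at 71.0, *Ern1* at 56.7, *Atf6* at 42.2, *Hspa5* at 36.1, *Atf4* at 26.9, *Dnajb9* (ERdj4, a BiP co-chaperone) at 13.2 and *Eif2ak3* at 3.37 CPM per kilobase. The chaperone calreticulin thus stood at the top and the sensor PERK at the bottom. The untreated KO Input also had *Calr* (433 CPM per kilobase) highest and *Eif2ak3* (5.52) lowest, but *Hsp90b1* (176) stood above *Xbp1* (146) and *Hspa5* (50.5) above *Ern1* (44.2) and *Atf6* (33.2). The 80-base *Atf4* region is shorter than the sequencing reads of 100 bases that the methods name, and its Inputs held at most 2 reads, so its level is loosely set. Reads that overlap only the edge of a region count too, which raises the level per kilobase of short regions such as *Ddit3* (197 bases) and *Hsp90b1* (262). The *Hspa5* level in the untreated KO Input rests on 28 reads and that of *Ddit3* in WT on 13. The order between *Calr* and *Eif2ak3* is therefore loosely set in both genotypes.

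**Figure D1:**
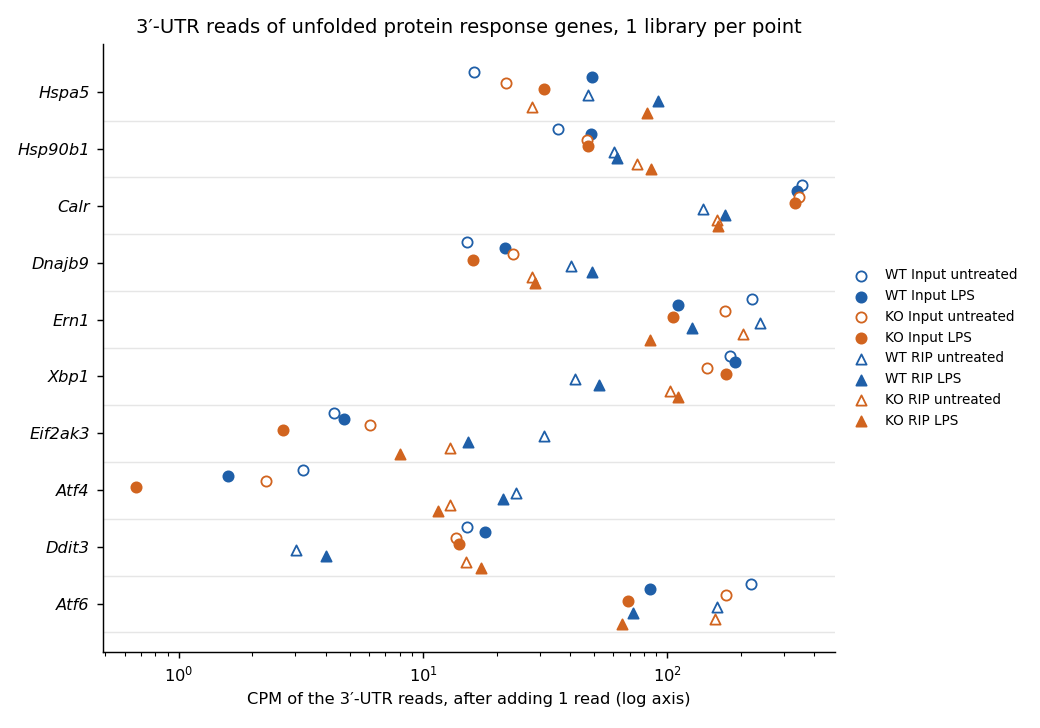
Level of each gene in CPM of 3′-UTR reads after adding 1 read (log axis) in the 8 libraries; circles are Inputs and triangles RIPs, blue is WT and orange KO, open symbols are untreated and filled symbols LPS. Levels are to be compared within a gene. Before the read was added, the WT RIPs of *Xbp1* (41.4 and 52.2 CPM) and *Ddit3* (2.40 and 3.61 CPM) lie below their other 6 libraries, and all 4 LPS libraries of *Atf6* (64.3 to 84.3 CPM) lie below its 4 untreated ones (154 to 219.6 CPM).

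The first comparison asked how the mRNAs changed in the lysates after 9 h of LPS. In WT, *Hspa5* was 3.04-fold higher, *Atf6* and *Ern1* were 0.385-fold and 0.497-fold their untreated level, and no other gene of the set was called. That is 1 higher and 2 lower of the 9 genes with enough reads, against 17.1% and 23.3% of 8163 genes. In the KO, 0 were higher and 2 lower of 9, against 18.2% and 26.8% of 8250 genes. Of all calls, 42.3% in WT and 40.5% in the KO were higher, 47.2% and 49.2% on library totals and 52.4% and 52.7% with TMM, which raised the median of all genes by 0.14 and 0.19. In bulk lysates, fewer cells of a type and less RNA per cell cannot be told apart.

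Among the chaperones, the WT Inputs held 14 *Hspa5* reads (15.1 CPM) untreated and 92 (48.5 CPM) with LPS, and the KO Inputs 28 (21.1 CPM) and 46 (30.6 CPM). The untreated KO level thus lay above the untreated WT level, and the LPS level of WT lay above all others. The log2 ratio was 1.60 (0.82 to 2.39) in WT and 0.52 (−0.15 to 1.18) in the KO, and the latter was called only with TMM scaling, at 0.71. The difference of the ratios, WT minus KO, was 1.09 (0.05 to 2.12), the 1 gene of 9 called, against 5.49% of 7867 genes higher and 3.41% lower. On library totals this difference was 1.02 (−0.02 to 2.05) and was not called. It rests on 14 reads in the untreated WT library. Over all genes, 61.7% of the calls of this difference were higher, 46.0% on library totals and 51.6% with TMM.

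*Hsp90b1*, the ER member of the HSP90 family, had 32 and 91 reads in the untreated and LPS WT Inputs (34.4 and 48.0 CPM) and 61 and 70 in the KO Inputs (46.0 and 46.6 CPM). The untreated WT level was the lowest, and the other 3 lay close together. The log2 ratios were 0.45 (−0.12 to 1.02) in WT, called only with TMM, at 0.59, and 0.02 (−0.48 to 0.51) in the KO. *Calr* had 354 and 338 CPM in WT and 345 and 333 CPM in the KO. It was the most deeply read gene of the set, and its log2 ratios, −0.07 (−0.26 to 0.12) in WT and −0.05 (−0.23 to 0.13) in the KO, leave room for only small changes in these libraries, with their sign set by the scaling, which became positive with TMM (0.07 and 0.14). *Dnajb9*, with 13 and 40 reads in WT (14.0 and 21.1 CPM) and 30 and 23 in the KO (22.6 and 15.3 CPM), had ratios of opposite sign, 0.52 (−0.36 to 1.40) and −0.55 (−1.32 to 0.22), both with intervals that held 0.

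Of the IRE1 arm, the sensor *Ern1* had 205 and 208 reads in the untreated and LPS WT Inputs (221 and 109.6 CPM) and 228 and 157 in the KO Inputs (172 and 105 CPM). Both LPS levels lay below both untreated levels. The log2 ratios were −1.01 (−1.29 to −0.73) and −0.72 (−1.01 to −0.42). Its substrate *Xbp1* had 179.8 and 188 CPM in WT and 144 and 173 CPM in the KO. Neither ratio was called, with 0.06 (−0.20 to 0.33) in WT and 0.26 (−0.01 to 0.53) in the KO. A count over the 3′-UTR does not separate spliced from unspliced *Xbp1*.

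The sensor *Atf6* had the lowest ratio of the set in both genotypes. It had 204 and 160 reads in the untreated and LPS WT Inputs (219.6 and 84.3 CPM) and 229 and 103 in the KO Inputs (173 and 68.6 CPM). The ratios were −1.38 (−1.68 to −1.08) and −1.33 (−1.66 to −0.99), and they differed by −0.05 (−0.50 to 0.39) between the genotypes. The falls of *Atf6* and *Ern1* were called in both genotypes under all 3 scalings.

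The PERK arm was thinly read. *Eif2ak3* had 3 and 8 reads in the WT Inputs and 7 and 3 in the KO Inputs, and the ratios of 0.14 (−1.56 to 1.84) and −1.18 (−2.91 to 0.55) do not set a direction. *Atf4* had 2 and 2 reads in WT and 2 and 0 in the KO, too few for a ratio. *Ddit3*, the pro-apoptotic target of ATF4, had 13 and 33 reads in WT (14.0 and 17.4 CPM) and 17 and 20 in the KO (12.8 and 13.3 CPM). Its ratios of 0.25 (−0.65 to 1.15) and 0.04 (−0.87 to 0.95) were not called, and their intervals leave changes of either sign undetectable at this depth.

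**Figure D2:**
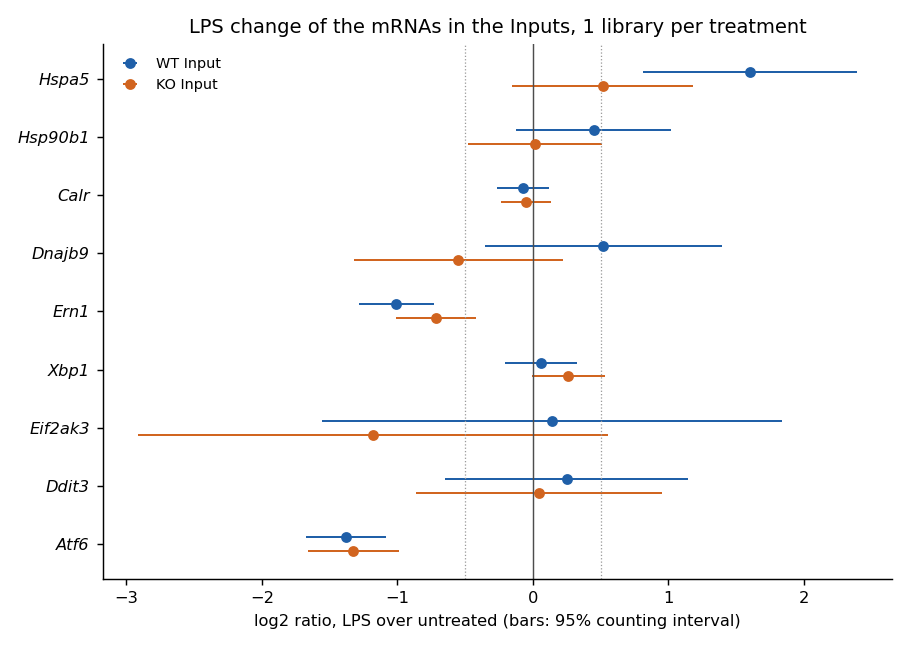
Log2 ratio of LPS over untreated in the WT (blue) and KO (orange) Inputs for the 9 genes with a ratio; bars are 95% counting intervals, dotted lines mark ratios of 0.5 and −0.5, and *Atf4* is left out because no Input held more than 2 of its reads. *Atf6* and *Ern1* lie left of the dotted line in both genotypes, and *Hspa5* lies right of it with an interval clear of 0 in WT.

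Between the genotypes, no gene of the set was called in the untreated Inputs, where 3.25% of 7845 genes were higher and 4.83% lower in WT. After LPS, *Hspa5* was the 1 gene called of 9, at 0.65 (0.14 to 1.15), against 5.19% of 8151 genes called higher and 4.09% called lower. Of all LPS calls 56.0% were higher, 43.4% on library totals and 50.7% with TMM. The ratios of the other 8 lay between 0.02 (*Calr*) and 0.83 (*Eif2ak3*), and those of *Calr* and *Hsp90b1* turned to −0.04 and −0.02 on library totals.

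The second comparison asked which of these mRNAs were recovered with the anti-CPEB4 antibody beyond their level in the lysate. Recovery in WT differed between genes of the same arm. The mRNAs of PERK, ATF4, BiP and ERdj4 were higher in the RIP than in the Input under both treatments, and those of XBP1, CHOP and calreticulin were lower. IRE1α and ATF6 mRNAs were called in neither direction, except that *Ern1* with LPS was called higher on library totals (0.71) and with TMM (0.50). In untreated WT cells 5 genes were higher and 3 lower of 10, against 27.3% of 8359 genes in each direction. After LPS 4 were higher and 3 lower of 10, against 29.2% and 32.7% of 8767 genes. The lower calls under both treatments and the higher calls with LPS were near the background in number, and all these counts are of few genes. On library totals and with TMM, 67.3% and 59.5% of all LPS calls were higher, against 47.2% on 3′-UTR totals. Ribosomal RNA was depleted from the Inputs only, so the library totals of a RIP and its Input may differ in make-up, which was not tested.

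*Atf4*, the effector of the integrated stress response, had the highest ratios. Its reads numbered 39 in the untreated and 52 in the LPS WT RIP (23.4 and 20.9 CPM), 5 and 9 in the KO RIPs (10.7 and 10.3 CPM) and at most 2 in any Input. Every RIP thus lay above every Input, in both genotypes. The log2 ratio of RIP over Input in WT was 2.89 (1.20 to 4.59) untreated and 3.75 (2.07 to 5.43) with LPS, above 96.9% and 99.5% of genes. In the LPS KO pair, 9 RIP reads stood against 0 Input reads, and the pair missed the read minimum. With 3 reads taken for the Input this is 5.17-fold on 3′-UTR totals, without the counting error of the 9 reads. The only MACS peak score of the set above the 500 that the study's methods set was that of *Atf4* in the LPS WT RIP, at 665, against 64.2 in the untreated WT RIP and 0 in both KO RIPs.

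*Eif2ak3* had 51 reads in the untreated and 37 in the LPS WT RIP (30.6 and 14.8 CPM), against 5 and 6 in the KO RIPs (10.7 and 6.88 CPM). Both WT RIPs stood above the other 6 libraries. The ratios over the Inputs were 2.86 (1.39 to 4.33) untreated and 1.68 (0.64 to 2.73) with LPS in WT, and 1.09 (−0.44 to 2.62) in the untreated KO. *Ddit3*, downstream in the same arm, went the opposite way in WT. Its WT RIPs held 4 and 9 reads (2.40 and 3.61 CPM), below all 6 other libraries, which lay between 12.8 and 17.4 CPM. The ratios were −2.33 (−3.80 to −0.85) and −2.16 (−3.18 to −1.14) in WT. They were 0.14 (−1.12 to 1.40) and 0.30 (−0.66 to 1.26) in the KO, where both turned negative on library totals (−0.63 and −0.38). A stretch of 68 of the 197 bases of its region (34.5%) overlaps an exon of *Mars* on the other strand, and strand was not stated to be used in counting, so reads of these genes cannot be told apart there. The 3′-UTR region of *Mars* itself held 3 to 10 reads in each library.

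Of the chaperone mRNAs, *Hspa5* had 78 and 227 reads in the untreated and LPS WT RIPs (46.8 and 91.1 CPM) and 12 and 71 in the KO RIPs (25.7 and 81.5 CPM). On this scale every RIP stood above the Input of its own genotype and treatment, the KO ones included. The ratios were 1.55 (0.76 to 2.35) and 0.90 (0.55 to 1.25) in WT, and 0.35 (−0.60 to 1.29) and 1.40 (0.87 to 1.93) in the KO. On library totals the KO values were −0.42 and 0.72, so that the untreated one turned and the LPS one was still called. MACS peaks overlapped its region in all 4 RIPs, with scores of 130 and 234 in the untreated and LPS WT RIPs and 97.7 and 204 in the KO RIPs.

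*Dnajb9* had 66 and 121 reads in the WT RIPs (39.6 and 48.5 CPM) and 12 and 24 in the KO RIPs (25.7 and 27.5 CPM). The RIP ratios were 1.42 (0.59 to 2.25) and 1.18 (0.67 to 1.69) in WT, and 0.25 (−0.68 to 1.18) and 0.84 (0.04 to 1.65) in the KO, which became −0.52 and 0.16 on library totals. *Hsp90b1* differed in that the KO RIPs held more of it than the WT RIPs. Its RIPs held 60.0 and 61.8 CPM in WT and 72.7 and 84.9 CPM in the KO. The ratios were 0.77 (0.20 to 1.34) and 0.36 (−0.01 to 0.73) in WT and 0.68 (0.08 to 1.28) and 0.86 (0.40 to 1.33) in the KO, where library totals gave −0.09 and 0.18, turning the untreated value. The WT value with LPS was called on library totals (0.87) and with TMM (0.66).

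*Calr* was lower in each of the 4 RIPs than in its Input. The RIPs held 139.9 and 172 CPM in WT and 158 and 161 CPM in the KO, all below the lowest Input level of 333 CPM. The ratios were −1.34 (−1.58 to −1.10) and −0.98 (−1.15 to −0.80) in WT and −1.11 (−1.46 to −0.76) and −1.05 (−1.32 to −0.78) in the KO. On library totals the LPS WT value was −0.46 and was not called. On 3′-UTR totals the WT and KO values of *Calr* lay close together and those of *Xbp1* did not. *Xbp1* had 69 and 130 reads in the WT RIPs (41.4 and 52.2 CPM) and 47 and 95 in the KO RIPs (100.5 and 109 CPM). The ratios over Input were −2.11 (−2.51 to −1.70) and −1.84 (−2.13 to −1.56) in WT, and −0.50 (−0.95 to −0.04) and −0.66 (−0.99 to −0.32) in the KO.

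*Ern1* and *Atf6*, with the most TTTTAT or TTTTAAT elements of the set, were called in no pair of RIP and Input on 3′-UTR totals. *Ern1* had 238 and 126 CPM in the WT RIPs and 201 and 83.8 CPM in the KO RIPs, and its ratios over Input were 0.11 (−0.14 to 0.35) and 0.20 (−0.05 to 0.45) in WT, and 0.23 (−0.11 to 0.58) and −0.31 (−0.71 to 0.09) in the KO. *Atf6* had 159.7 and 71.8 CPM in the WT RIPs and 154 and 64.3 CPM in the KO RIPs, and its ratios were −0.46 (−0.72 to −0.20) and −0.23 (−0.54 to 0.07) in WT, the latter turning to 0.28 on library totals and 0.07 with TMM, and −0.15 (−0.53 to 0.23) and −0.08 (−0.55 to 0.38) in the KO. On library totals the LPS WT value of *Ern1* was called higher, as given above, and the untreated and LPS KO values were called lower for both genes, at −0.53 and −0.99 for *Ern1* and −0.92 and −0.77 for *Atf6*.

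Of the 9 genes tested in the untreated KO pair, 1 was higher (*Hsp90b1*) and 1 lower (*Calr*), against 20.8% and 14.6% of 7708 genes. With LPS, 3 were higher (*Hspa5*, *Hsp90b1* and *Dnajb9*) and 2 lower (*Xbp1* and *Calr*) of 8, against 22.1% and 18% of 7861 genes. On library totals the median ratio of all genes in the KO pairs dropped by 0.77 and 0.68, and 13.8% and 14.1% of all calls were higher, against 58.8% and 55.1% on 3′-UTR totals and 48.2% and 50.3% with TMM. Of these genes only *Hspa5* with LPS was then called higher in the KO.

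**Figure D3:**
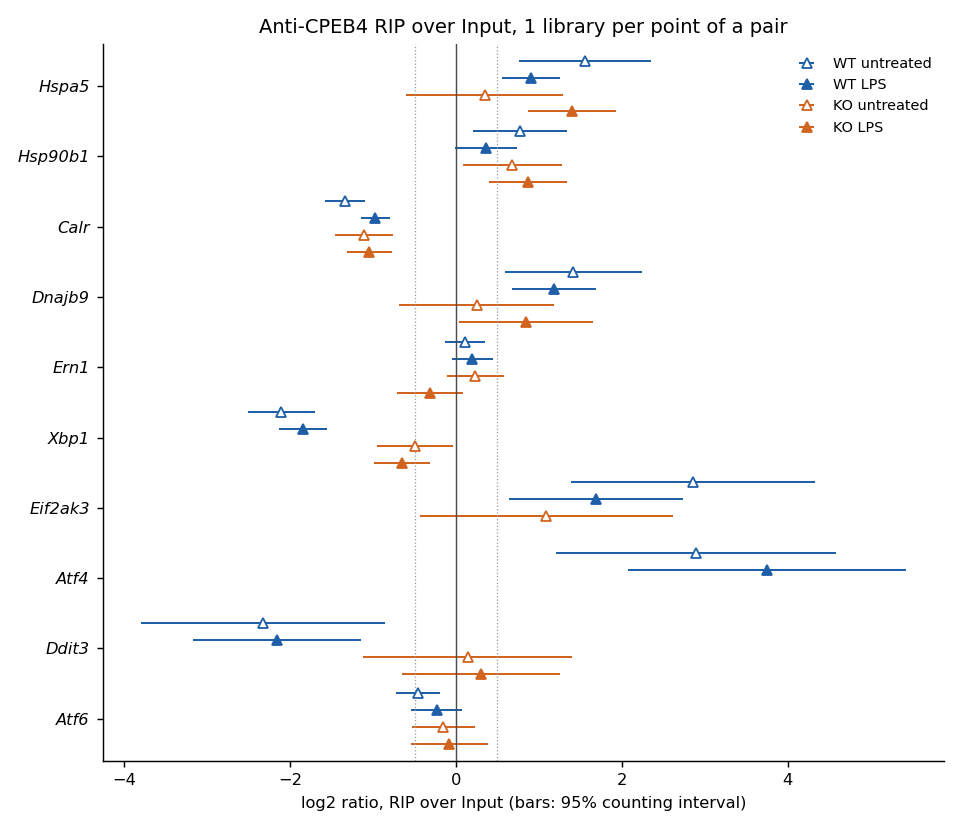
Log2 ratio of anti-CPEB4 RIP over Input for each gene in WT (blue) and KO (orange), untreated (open) and LPS (filled); bars are 95% counting intervals and dotted lines mark ratios of 0.5 and −0.5. *Eif2ak3* in the LPS KO pair and *Atf4* in both KO pairs are left out for having fewer than 10 reads, and *Xbp1* and *Ddit3* lie further left in WT than in the KO while the 4 values of *Calr* lie together.

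The third comparison set the WT RIPs against the KO RIPs, which asks how recovery differed between the cultures with and without CPEB4. The part of CPEB4 in it cannot be told apart from that of the culture or of the single RIP. This comparison depends on the total used, because the KO RIPs had fewer 3′-UTR reads relative to their library totals. Scaling to library totals raised the median log2 ratio of all genes by 0.84 untreated and 1.14 with LPS, and TMM raised it by 0.23 and 0.34. Relative to 3′-UTR totals, 1 gene was higher and 2 lower of 10 in untreated cells, against 12.3% and 18.1% of 8064 genes, and 2 were higher and 2 lower with LPS, against 16.4% and 21.7% of 8310 genes. On library totals the same 10 genes gave 7 higher and 0 lower untreated and 8 higher and 0 lower with LPS, and with TMM 2 and 2, then 4 and 2. Over all genes, 40.4% of the untreated calls and 43.1% of the LPS calls were higher on 3′-UTR totals, 95.7% and 96.8% on library totals and 62.9% and 69.2% with TMM.

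*Xbp1* and *Ddit3* were the lowest of the set whichever total was used. The WT over KO ratio of *Xbp1* was −1.29 (−1.82 to −0.76) untreated and −1.07 (−1.45 to −0.69) with LPS, and on library totals it was −0.45 (−0.98 to 0.08) and 0.07 (−0.31 to 0.45), which turned the LPS direction. That of *Ddit3* was −2.32 (−3.97 to −0.66) and −2.10 (−3.26 to −0.95), and on library totals it was −1.48 (−3.13 to 0.18) and −0.96 (−2.11 to 0.19). The macrophage marker list was lower as well in the WT RIPs on 3′-UTR totals, with 5 of 8 called lower and 0 higher under each treatment and medians of −1.03 and −1.08, against −0.10 and −0.04 for all genes. On library totals 2 and 3 of the markers were called higher and 0 lower. The part of this list in the values of *Xbp1* and *Ddit3* was not tested.

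At the other end, *Eif2ak3* was called higher in the untreated WT RIP at 1.28 (0.06 to 2.50), a value that rests on 5 reads in the KO RIP, and stood at 0.92 (−0.24 to 2.09) with LPS. *Dnajb9* stood at 0.53 (−0.32 to 1.39) untreated and was called at 0.77 (0.15 to 1.39) with LPS. *Ern1* stood at 0.23 (−0.09 to 0.56) untreated and was called at 0.57 (0.21 to 0.94) with LPS. These 3 genes had positive ratios under all 3 scalings, but none of the 3 calls was kept under the chi-square rule with Benjamini-Yekutieli adjustment. *Atf4* had 0.90 (−0.33 to 2.14) and 0.89 (−0.08 to 1.86), just short of the rule, and was called with LPS under TMM, at 1.23, and under both treatments on library totals, at 1.75 and 2.03.

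*Hspa5*, at 0.77 (−0.08 to 1.62) untreated and 0.15 (−0.24 to 0.53) with LPS, was not called. With TMM its untreated ratio was called too, at 1.0, and on library totals both were, at 1.61 and 1.29. *Atf6* was near 0, at 0.04 (−0.34 to 0.41) and 0.14 (−0.29 to 0.57), and reached 0.88 and 1.28 on library totals. *Hsp90b1*, at −0.30 and −0.47, and *Calr*, at −0.19 and 0.09, had ratios on library totals of 0.54 and 0.67 and of 0.65 and 1.23, so that the scaling set the direction in all but the LPS value of *Calr*.

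**Figure D4:**
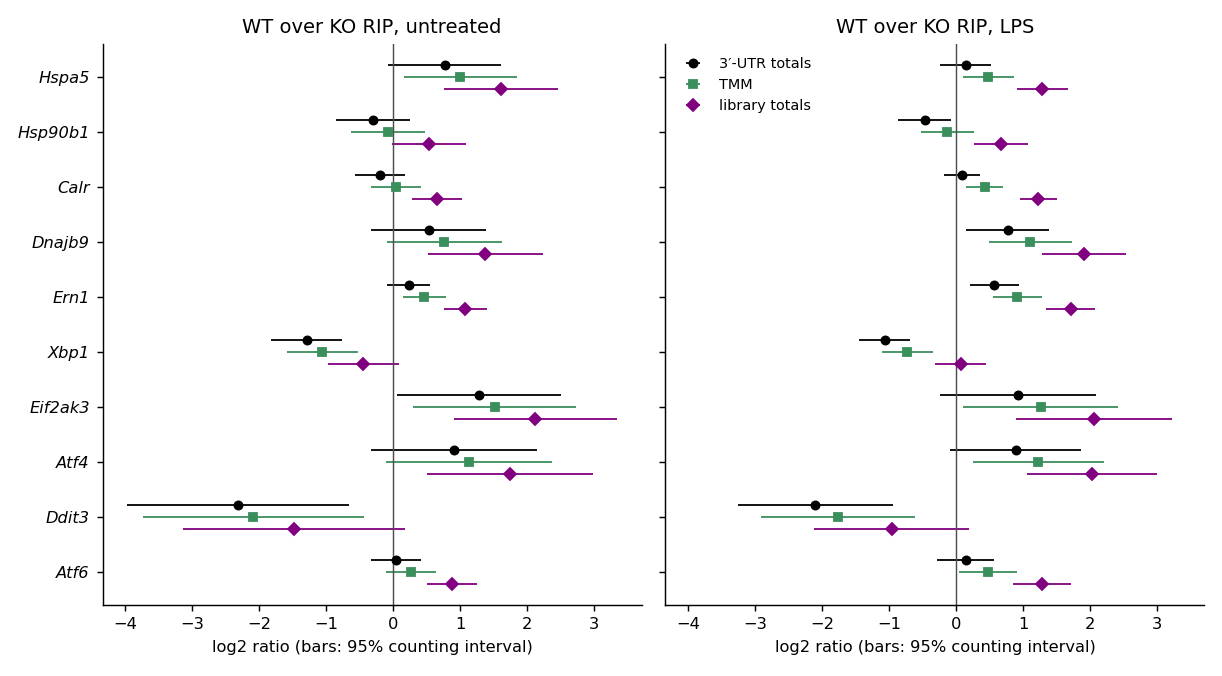
Log2 ratio of the WT over the KO RIP for each gene, untreated (left) and LPS (right), scaled to 3′-UTR totals (black), with TMM (green) or to library totals (purple); bars are 95% counting intervals. Changing the total moves all genes together by up to 1.14, and *Xbp1* and *Ddit3* stay the 2 lowest of the 10 under each scaling.

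After subtraction of the WT over KO ratio of the Inputs, *Xbp1* and *Ddit3* were called lower on 3′-UTR totals, at −1.61 (−2.22 to −1.0) and −2.47 (−4.41 to −0.53) untreated and −1.19 (−1.63 to −0.74) and −2.46 (−3.86 to −1.06) with LPS. No gene of 9 was called higher untreated, against 14.5% of 7201 genes, and 16.1% of genes were lower. With TMM, *Hspa5* and *Dnajb9* were called higher untreated, at 1.41 and 1.37. With LPS, *Ern1* was higher at 0.51 (0.04 to 0.98), against 14.1% called higher and 21.4% called lower of 7575 genes. Higher calls were 47.4% untreated and 39.8% with LPS of all calls, 93.8% and 96.8% on library totals and 63.7% and 66.6% with TMM. Library totals raised the median of all genes by 0.83 untreated and 1.20 with LPS, and 7 of the set were then called higher and 1 lower untreated, and 6 higher and 0 lower with LPS. The values of *Xbp1* became −0.78 (−1.39 to −0.17), still called, and 0.01 (−0.43 to 0.46), and those of *Ddit3* −1.64 (−3.58 to 0.30) and −1.26 (−2.66 to 0.13), both no longer called.

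The change of this corrected ratio from untreated to LPS used all 8 libraries. It was called for 2 of 9 genes, 1 in each direction, against 2.71% of 6648 genes higher and 4.47% lower. On library totals, which raised the median of all genes by 0.37, 3 were higher and 0 lower: *Xbp1* at 0.79, *Ern1* at 1.0 and *Calr* at 0.67. Higher calls were 37.7% of all calls, 90.0% on library totals and 65.4% with TMM. *Hspa5* had −1.71 (−3.10 to −0.32), its corrected ratio going from 1.21 (−0.03 to 2.44) to −0.50 (−1.13 to 0.13). It rests on 12 KO RIP and 14 WT Input reads of untreated cells, and on library totals it was −1.34 (−2.73 to 0.05) and was not called. *Ern1* had 0.63 (0.00 to 1.27), going from −0.13 to 0.51, and was not called when 0.1 reads were added.

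The LPS change was also read in the RIPs. They are other libraries but come from the same cultures as the Inputs, so they are no independent check of the treatment. In the WT RIPs, *Hspa5* was higher with LPS at 0.95 (0.58 to 1.32). *Atf6* was lower at −1.15 (−1.42 to −0.88), *Eif2ak3* at −1.03 (−1.64 to −0.43) and *Ern1* at −0.92 (−1.13 to −0.71). That is 1 higher and 3 lower of 10, against 16.7% and 29.7% of 8901 genes. On library totals, which raised the median of all genes by 0.52, *Eif2ak3* (−0.51) and *Ern1* (−0.40) were not called lower, and *Hsp90b1*, *Xbp1*, *Dnajb9* and *Calr* were called higher. In the KO RIPs, *Hspa5* was higher at 1.57 (0.72 to 2.42), and *Atf6* and *Ern1* were lower at −1.25 (−1.75 to −0.76) and −1.26 (−1.70 to −0.82). That is 1 higher and 2 lower of 10, against 15.5% and 24.4% of 7227 genes. Of all calls in the WT and KO RIPs, 35.9% and 38.9% were higher, 69.8% and 53.0% on library totals and 60.7% and 56.0% with TMM. *Atf4* had −0.18 (−0.77 to 0.42) in the WT RIPs, which turned to 0.34 on library totals and 0.20 with TMM.

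MACS peak scores, which compare a RIP with its Input, were above 0 for 5 of the 10 genes. Besides *Atf4* and *Hspa5*, *Dnajb9* had 66 untreated and 196 with LPS, *Ern1* had 73.1 and *Hsp90b1* 86.6 with LPS, all in WT RIPs and each 0 in the KO RIPs. *Eif2ak3*, *Xbp1*, *Atf6*, *Ddit3* and *Calr* had a score of 0 in all 4 RIPs.

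The wider ER stress pathway was described with 5 lists of 71 other genes, chosen with earlier results of these data known. In the WT Inputs, 15 were higher and 10 lower with LPS of 63 with enough reads, and their median was 0.11, against −0.08 for all genes, of which 17.1% were called higher and 23.3% lower. Of 13 genes of the PERK and integrated stress response, 6 were higher and 4 lower. *Slc7a11*, the cystine transporter induced by ATF4, went from 3 to 819 reads, at 6.65 (5.23 to 8.07), and *Nupr1*, a stress-induced nuclear protein, from 2 to 67, at 3.47 (1.80 to 5.14). Of 17 ER chaperones and folding enzymes, 3 were higher and 2 lower. *Ero1l*, the oxidase that recharges protein disulfide isomerases, went from 57 to 786 reads, at 2.73 (2.35 to 3.12), and *Manf*, a secreted ER stress protein, from 14 to 106, at 1.80 (1.02 to 2.58).

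The other 3 lists were read in the same pair. Of 12 genes of ER-associated degradation, 2 were higher and 3 lower, with *Ube2j1*, a ubiquitin-conjugating enzyme of the ER, at 1.01 (0.65 to 1.36) and *Edem1*, which hands misfolded glycoproteins to degradation, at −0.85 (−1.01 to −0.69). Of 8 partners of ATF6 and IRE1, 3 were higher and 1 lower, with the IRE1 adaptor *Traf2* at 1.32 (0.75 to 1.90) and the ATF6 paralogue *Atf6b* at 0.81 (0.31 to 1.31), the opposite direction to *Atf6*. Of 13 genes of ER translocation and signal peptidase, 1 was higher and 0 lower, *Srpr*, the receptor of the signal recognition particle, at 0.59 (0.24 to 0.95).

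In the LPS WT RIP over its Input, 19 of 66 other pathway genes were higher and 20 lower, with a median of 0.00, against 29.2% and 32.7% of all genes. On library totals 34 were higher and 13 lower, with a median of 0.52 against 0.48 for all genes, and with TMM 26 and 16. Opposite values stood within a list. Of the disulfide isomerases, *Pdia4* had 1.68 (0.84 to 2.52) and *P4hb* −1.98 (−2.16 to −1.79). *Spcs3*, a signal peptidase subunit, had 1.70 (1.51 to 1.89) and *Srprb* −2.31 (−2.80 to −1.82). *Mbtps2*, a Golgi protease that cleaves ATF6, had 0.98 (0.46 to 1.50) and *Traf2* −1.56 (−1.98 to −1.14). *Os9* and *Syvn1* of ER-associated degradation had −2.72 (−3.13 to −2.30) and −1.47 (−1.77 to −1.16), and *Atf5* and *Slc3a2*, both induced by ATF4, had −2.19 (−2.89 to −1.49) and −1.69 (−2.13 to −1.25). In the same pair *Atf4* itself stood at 3.75.

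Between the LPS WT and KO RIPs, 23 of 63 other pathway genes were higher and 10 lower, with a median of 0.35, against −0.04 for all genes, of which 16.4% were higher and 21.7% lower. On library totals, which raised the median of all genes by 1.14, 52 were higher and 2 lower, with a median of 1.49. With TMM 34 were higher and 6 lower, with a median of 0.68 against 0.29 for all genes. On 3′-UTR totals the higher ones lay mostly in 2 lists. Of 13 genes of ER translocation and signal peptidase, 9 were higher and 1 lower, with *Spcs2* at 1.42 (1.09 to 1.75) and *Srpr* at 1.33 (0.90 to 1.76). Of 17 ER chaperones and folding enzymes, 7 were higher and 1 lower, with *Pdia4* at 1.78 (0.57 to 2.99) and *Manf* at 1.23 (0.69 to 1.77). The median of these 2 lists was 0.68 and 0.51. *Slc7a11* had 1980 WT and 187 KO RIP reads, at 1.88 (1.67 to 2.10). *Nupr1* had 28 and 52, at −2.39 (−3.04 to −1.73). *Os9*, the ATPase *Vcp* and *Traf2* had −1.20, −1.17 and −0.83, and on library totals −0.06, −0.03 and 0.31, which turned *Traf2*. In the LPS KO RIP over its Input, 10 of the 63 pathway genes were higher and 18 lower on 3′-UTR totals. Their median was −0.27, against 0.00 for all genes. After subtraction of the WT over KO ratio of the Inputs, 21 of 63 were higher and 10 lower. The median was then 0.12, against −0.10 for all genes, of which 14.1% were higher and 21.4% lower.

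For the 7 genes with no library under 10 reads, the nearest profile was found as the smallest root-mean-square difference in centred log2 CPM over the 8 libraries, among 1083 genes with at least 50 reads in each. *Ern1* lay nearest to *Erp29* (0.11), *Dnajb9* to *Eea1* (0.11), *Xbp1* to *Rhog* (0.14), *Hsp90b1* to *Arf6* (0.16), *Calr* to *Cap1* (0.16), *Atf6* to *Sft2d2* (0.16) and *Hspa5* to *Rest* (0.24). Of the set, only *Atf6*, *Ern1* and *Calr* had at least 50 reads in each library and could be found as a nearest gene. None of them was, and likeness to the other members could not be seen this way. *Atf4*, *Ddit3* and *Eif2ak3* had under 10 reads in at least 1 library and were not matched.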

How the data were processed

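RIP-seq reads of WT and CPEB4 KO BMDMs came as 16 samples, which are 8 libraries run on 2 lanes each. According to the methods and the submitters' processing notes, the authors aligned 100-base single-end reads to mm10 with Bowtie2 2.2.2 in local mode, filtered out duplicates (sambamba) and counted the overlaps with Ensembl 3′-UTR regions. Ribosomal RNA was depleted from the Inputs only. Removing duplicates limits how many reads a short region can hold. Whether counting used strand is not given in the sources used here.

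The 4 deposited tables give read counts per region and library, identical in all 4. The authors' RPKM values divide these counts by region length and by a larger library total. The score deposited by the authors is the highest MACS 1.4.2 peak score over a region, and the other deposited columns are the region length in bases and CPE predictions. The authors' own fold changes and p-values, which compare RIP with Input, were not used.

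Of 31117 regions, 495 without a symbol, with 0.902% to 1.04% of the reads, were left out, which leaves 30622 regions of 14925 genes. The 10 genes had 17 regions, and *Hspa5* is listed under 2 transcripts with the same coordinates. Overlapping isoforms count a read more than once. Reads were scaled to the column sum, 1 read was added, and log2 ratios got a 95% normal interval from the counts. Ratios of both libraries at 3 or fewer reads are not given. With 1 library per group, no p-value is reported. The 16 comparisons share libraries, and their values are given side by side. Named genes were the 10 members, *Cpeb4* and, in 3 comparisons, up to 2 called genes per pathway list with the largest ratio and at least 50 reads. The members and lists were chosen with earlier results of these data known.

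The alternatives were library totals implied by the RPKM, TMM (edgeR 4.0.16, R 4.3.3), 0.1 reads added, a minimum of 50 reads or none, a ratio past 1, the longest region per gene, and the chi-square test with Benjamini-Yekutieli adjustment under 0.02 that follows the study's methods. The steps were checked on simulated counts. Python 3.11.15, pandas 2.3.3, scipy 1.17.1 and matplotlib 3.10.9 were used. Regions were placed on GENCODE M21 of the same build.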

Additional observations from a re-analysis of the deposited data

Results flagged for a closer look

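*Dnajb9* and *Eif2ak3* stood out because the LPS ratio of the Inputs had opposite signs in the 2 genotypes. *Dnajb9* was at 0.52 in WT and −0.55 in the KO, from 13 and 40 reads and from 30 and 23 reads. *Eif2ak3* was at 0.14 in WT and −1.18 in the KO, from 3 and 8 reads and from 7 and 3 reads. The difference between the genotypes was not tested, since each rests on 1 library per group. Its counting interval held 0 for both, at −0.10 to 2.23 for *Dnajb9* and −1.11 to 3.75 for *Eif2ak3*.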

How the results depend on the processing

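No replicate could be left out, since each group was 1 library, and depth limited *Atf4*, *Eif2ak3* and *Ddit3* most. No paired analysis was possible because lanes 7 and 8 are runs of one library summed in 1 column. Of 608 log2 ratios of single genes recomputed with another total, another number of added reads or the longest region, 59 left the counting interval of the reported value without turning a called value, and 32 changed sign, 23 on library totals and 9 with TMM. Of these 32, 29 had not been called, and the 3 that had been turned on library totals: *Hsp90b1* in the untreated KO RIP over Input (−0.0883), *Xbp1* in the LPS WT over KO RIPs (0.0734) and *Xbp1* in the input-corrected LPS ratio (0.0115). The longest region per gene and no read minimum kept every count of called genes within 1.5 times.

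The number of the 10 genes called changed as follows. On library totals it was 0 for the WT minus KO difference in the LPS change of the Inputs, 4 for untreated KO RIP over Input, 7 and 8 for the untreated and LPS WT over KO RIPs, and 8 and 6 for the input-corrected ratios. This total, like the others, moves all genes of a library together. With TMM it was 4 for the untreated input-corrected ratio and 7 for LPS over untreated in the WT RIPs. With 0.1 reads added it was 4 for the untreated input-corrected ratio and 1 for its change with LPS, and with at least 50 reads it was 1 for each of these.

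With a ratio past 1 it was 1 for the LPS change of the KO Inputs, 0 for the LPS WT over KO Inputs, 1 and 2 for untreated and LPS KO RIP over Input, 2 for the LPS WT over KO RIPs, 1 for the change of the input-corrected ratio and 2 for LPS over untreated in the WT RIPs. Under the chi-square rule it was 0 for the LPS WT over KO Inputs, 1 for untreated KO RIP over Input, and 1 and 2 for the untreated and LPS WT over KO RIPs, where *Ddit3* and *Eif2ak3*, then *Ern1* and *Dnajb9*, were lost. This rule could not be run for differences over 4 or 8 libraries. The cause of the changes in these counts was not tested.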
